A study of Homo sapiens with 6 samples.

Results

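Mismatch repair is the system that removes mispaired bases and small insertion or deletion loops left behind by DNA replication. A MutS heterodimer finds the mismatch and a MutL heterodimer licenses the cut on the new strand. An exonuclease, the sliding clamp, the clamp loader, a single-strand binding protein, a replicative polymerase and a ligase help remove and rebuild the stretch. Of the genes described here, MSH6 and MSH3 encode alternative MutS subunits, which recognize mainly single mismatches and small loops (MSH6) or larger loops (MSH3), and PMS2, PMS1 and MLH3 encode alternative MutL subunits. PMS2 carries the endonuclease activity of the main MutL complex, MLH3 is best known for crossover formation in meiosis, and the role of PMS1 in repair is less well defined. MSH6 and MSH3 are listed among the genes whose transcripts peak as cells enter S phase. The 5 genes were picked by symbol, 5 of the 23228 rows of the count table, by a rule that sets no threshold on their values, and other subunits of these complexes are not analysed here.

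The cells were SaOS-2, a human osteosarcoma line that lacks functional RB and p53, carrying a Tet-inducible vector for p21, the cyclin-dependent kinase inhibitor encoded by CDKN1A. In the p21 OFF group (3 libraries) the cells were untreated, and in the p21 ON group (3 libraries) they had received doxycycline at 1 μg/ml for 24 h. Polyadenylated RNA of whole cultures was sequenced, and the comparison asks which transcripts change when p21 is induced in cells without RB. No doxycycline-treated cells without the vector were included, so the drug and p21 cannot be told apart. The values are bulk levels, in which a change in the mix of cell cycle stages and a change of RNA in each cell cannot be told apart.

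The libraries held 12795490 to 21975045 reads on genes. CDKN1A rose from 1266 ± 84.5 to 43691 ± 3138 normalized counts (SD, n = 3 in each group), a log2 fold change of 5.11 with an adjusted p of 1.12e-19 by limma. Of 8 osteoblast markers 7 had a mean of at least 10, with a summed level of 73271 to 76454 in p21 OFF and 74484 to 77781 in p21 ON libraries, and BGLAP was at 0 in every library. The summed epithelial markers ran from 2090 to 2586 and from 2446 to 2750, mostly KRT18. EPCAM was at 292 to 374 over the libraries and CDH1 at 3.91 or below. The leukocyte markers summed to 801 to 874 and 822 to 938, nearly all CD68. The endothelial markers summed to 62.8 to 69.1 and 73.1 to 104.5, mostly VWF (51.5 to 90.3), with CDH5 at 1.26 or below. The muscle markers summed to 8.79 to 10.2 and 12.2 to 17.5, with MYOD1 at 7.31 to 16.3 and DES at 4.87 or below. The part of these cell types in the results was not tested. The p21 OFF replicate 1 stood apart from the other p21 OFF libraries, with a chi-square per gene of 8.09 and 8.83 against them, where the other pairs of replicates gave 2.61 to 3.82. Where leaving it out changed the call of a named gene, the value without it is given. Other values that it moved are given without it only in part.

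The promoters of the 5 genes differ in motifs known from cell cycle genes. The windows searched ran from 250 bases before to 50 bases after the start of the canonical transcript (GENCODE release 44 on GRCh37, the assembly also called hg19), on both strands. E2F motifs (TTTCCCGC, TTTGGCGC, TTTCGCGC or TTTGCCGC) bind the E2F factors that RB family proteins hold in check, and were found at MSH3, MSH6 and PMS2. Over the windows of 18553 protein-coding genes, 4.43% held one. The sequences below show the matches at MSH6 and PMS2 and the pair of CCAAT motifs at PMS1, each with its motif in capitals, so that the genes can be compared at the bases in question.
MSH6 (chr2:48010277-48010304, + strand): tccccccagaTTTCCCGCcagcaggagc
PMS2 (chr7:6048763-6048790, - strand): gggaagtattTTTGCCGCcccgcccgga
PMS1 (chr2:190649120-190649149, + strand): gcggATTGGctgcgagcagcgCCAATctca

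At MSH6 the match sits at positions 4 to 11, inside its first exon. At PMS2 it sits at -100 to -93, in no annotated gene, and the bases at -96 to -91 and -91 to -86 are GC boxes (GGGCGG) on the other strand, the first of which shares bases with the E2F match. At PMS1 the capitals are the motif CCAAT on each strand, at -52 to -48 and -35 to -31, within an exon of another PMS1 transcript. The MLH3 window held none of the motifs searched. The cell cycle homology region motifs TTTGAA and TTCGAA, found in 12.4% of windows, were in none of the 5. A CCAAT motif was in 35.9% of all windows and a GC box in 62.9%. MSH6 had 1 CCAAT and 5 GC boxes, MSH3 had 2 E2F matches and 4 GC boxes, PMS1 had 2 CCAAT and 1 GC box, and PMS2 had 3 CCAAT and 2 GC boxes. The 2 matches at MSH3, at -107 to -100 and -103 to -96 on opposite strands, share bases. Of the 250 bases before the MSH3 start 248 lie in annotated exons. A match is a run of letters and says nothing about binding.

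Expression of the 5 genes was higher in every p21 ON library than in any p21 OFF library, but the differences were small and only MSH6 passed the test. Over the table, 19.1% of the 13255 genes tested had all p21 ON libraries above all p21 OFF libraries, and 21.3% had all of them below. With 3 against 3 libraries the exact two-sided permutation test gives p = 0.1 for each of the 5, which is the smallest value it can give. By limma at an adjusted p under 0.05, 10.5% of the genes tested were called higher with p21 ON and 12.7% were called lower. Among the 5 mismatch repair genes 1 was higher and none lower, with 5 of 5 passing the filter on low values in both groups. The median of their log2 fold changes was 0.16 (range 0.15 to 0.36), against 0.01 over all genes tested.

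**Figure D1:**
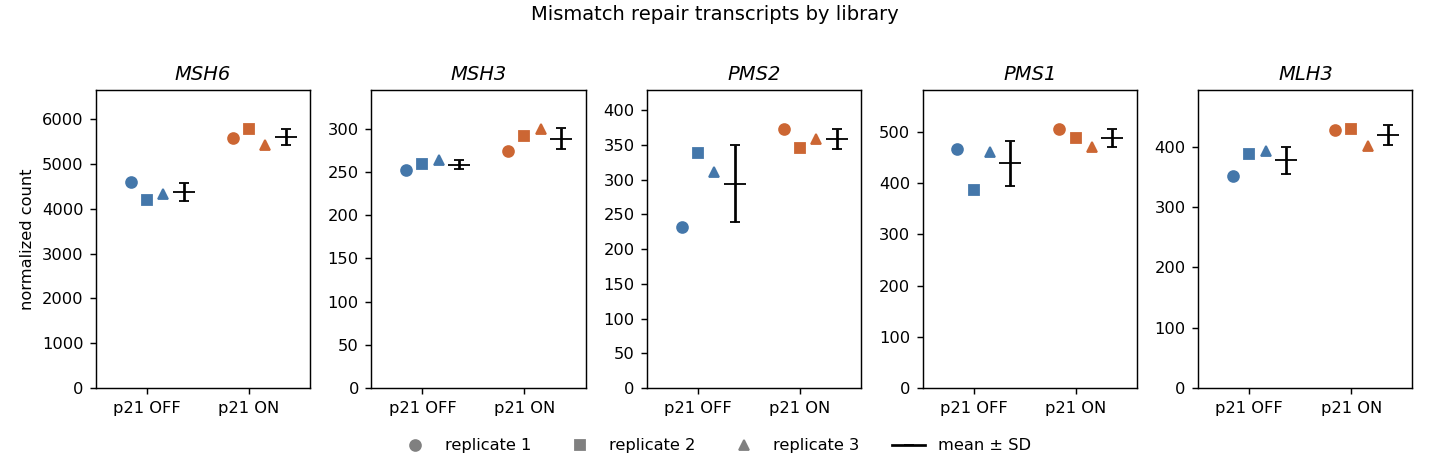
Normalized counts (linear axis from 0) of the 5 mismatch repair genes in the 3 p21 OFF (blue) and 3 p21 ON (orange) libraries, with symbols for replicates and the mean ± SD in black. Every p21 ON value lies above every p21 OFF value of the same gene, and the widest spread is that of PMS2 in p21 OFF, from 232 to 339.

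MSH6 showed the clearest change. It had 4595, 4196 and 4319 normalized counts in p21 OFF against 5587, 5773 and 5414 in p21 ON libraries (4370 ± 204 and 5591 ± 180, SD, n = 3). The groups are well apart, with the lowest p21 ON library above the highest p21 OFF library. Its level rose by 28.0%, a log2 fold change of 0.36 (SE 0.06, 95% confidence interval 0.23 to 0.48, limma adjusted p = 0.000328). Of the genes tested 10.3% had a log2 fold change as large or larger. MSH6 was called higher in all 19 alternative settings run, where its log2 fold change lay between 0.32 and 0.40 and its adjusted p between 2.59e-07 and 0.00416. Each library held 3659 to 5843 MSH6 reads, so that counting error alone gives a coefficient of variation of 1.45% in p21 OFF, where 4.68% was measured.

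MSH6 lies at chr2:47922669-48037202 on the + strand, and its canonical transcript (10 exons, 4265 bases) starts at position 48010284. Of that transcript 34 exonic bases are shared with FBXO11, a ubiquitin ligase subunit gene read from the opposite strand, and 4022 bases over all annotated transcripts of the pair. FBXO11 had 1997 ± 35.9 normalized counts in p21 OFF and 1969 ± 58.5 in p21 ON cells, a log2 fold change of -0.02 (adjusted p = 0.826 by limma).

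MSH3, the other MutS subunit, had 252, 259 and 264 normalized counts in p21 OFF and 275, 291 and 299 in p21 ON libraries. The lowest p21 ON value exceeds the highest p21 OFF value by a few counts. The group means were 259 ± 5.76 and 288 ± 12.5 (SD, n = 3), a log2 fold change of 0.16 (SE 0.09, 95% confidence interval -0.03 to 0.34) that missed the threshold (limma adjusted p = 0.203). With 201 to 357 reads per library, counting error gives a coefficient of variation of 6.0% in p21 OFF and 6.22% in p21 ON. The measured ones were 2.23% and 4.34%, both below counting error. MSH3 lies at chr5:79950471-80172634 on the + strand, with 24 exons and 4443 bases in its canonical transcript.

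The balance between both MutS subunits was compared within libraries, where the scaling cancels. The log2 ratio of MSH6 to MSH3 was 4.18, 4.01 and 4.03 in p21 OFF and 4.34, 4.30 and 4.17 in p21 ON libraries. The groups overlap. The mean ratio went from 4.07 ± 0.09 to 4.27 ± 0.09 (SD, n = 3), a difference of 0.20 (exact permutation test, two-sided, p = 0.2, 0.3 after Benjamini-Hochberg adjustment over the 6 ratios computed). With 3 against 3 libraries the smallest p this exact permutation test can give is 0.1. It therefore cannot decide whether the changes of MSH6 and MSH3 differ, and no difference between them was shown.

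PMS2 had the next largest difference, but it depended on 1 library. It had 232, 339 and 310 normalized counts in p21 OFF and 373, 345 and 358 in p21 ON libraries. Replicate 1 of p21 OFF is far below the other libraries, and the highest p21 OFF value is close to the lowest p21 ON value. The means were 294 ± 55.2 and 359 ± 13.9 (SD, n = 3), a log2 fold change of 0.30 (SE 0.11, 95% confidence interval 0.06 to 0.54, limma adjusted p = 0.0609). Without p21 OFF replicate 1 the log2 fold change was 0.14 (adjusted p = 0.259), while without p21 OFF replicate 2 it was 0.41 (adjusted p = 0.0185) and without p21 OFF replicate 3 it was 0.35 (adjusted p = 0.0392). Over 20 alternative settings PMS2 was called higher in 4. The coefficient of variation of PMS2 in p21 OFF was 18.8%, against 5.80% from counting error, and in p21 ON it was 3.86%, against 5.57%.

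PMS2 lies at chr7:6010556-6048761 on the - strand (15 exons and 5093 bases in the canonical transcript), and its reads are uncertain because the genome holds near-identical copies. The table listed 6 such rows, of which 4 passed the filter and none was called. PMS2CL had 87.0 ± 17.6 and 91.9 ± 14.6 normalized counts in p21 OFF and p21 ON (log2 fold change 0.09), and PMS2P1 had 96.3 ± 7.37 and 81.2 ± 9.20 (log2 fold change -0.25, adjusted p = 0.205 by limma). The log2 fold change was 0.13 for PMS2P3 and 0.11 for PMS2P4. PMS2P5 was under the filter, and PMS2L2 was listed at 0 in every library. The copies together had 232 ± 19.1 and 223 ± 10.3 normalized counts. PMS2 took 55.7% ± 2.98 of the sum of PMS2 and its copies in p21 OFF and 61.7% ± 0.69 in p21 ON. When PMS2 was summed with the copies, the log2 fold change was 0.15 (limma adjusted p = 0.238).

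PMS1 had 467, 387 and 461 normalized counts in p21 OFF and 505, 489 and 471 in p21 ON libraries. The p21 OFF replicate 2 is the low one, and the top of the p21 OFF group nearly meets the bottom of the p21 ON group. The means were 439 ± 44.4 and 488 ± 17.0 (SD, n = 3), a log2 fold change of 0.16 (SE 0.09, 95% confidence interval -0.02 to 0.34, limma adjusted p = 0.185). Without that library the log2 fold change was 0.07, the lowest among its alternatives. PMS1 lies at chr2:190648811-190742355 on the + strand (13 exons and 3156 bases in the canonical transcript).

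MLH3 had 352, 387 and 392 normalized counts in p21 OFF and 428, 429 and 401 in p21 ON libraries. Each p21 ON value lies above the p21 OFF group, with replicate 3 of p21 ON the nearest. The means were 377 ± 22.3 and 419 ± 16.0 (SD, n = 3), a log2 fold change of 0.15 (SE 0.08, 95% confidence interval -0.02 to 0.32, limma adjusted p = 0.180). MLH3 has the longest transcript of the 5 (7820 bases, 13 exons, chr14:75480472-75518235, - strand), and after a trend on transcript length was taken out of each library its log2 fold change was 0.03.

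**Figure D2:**
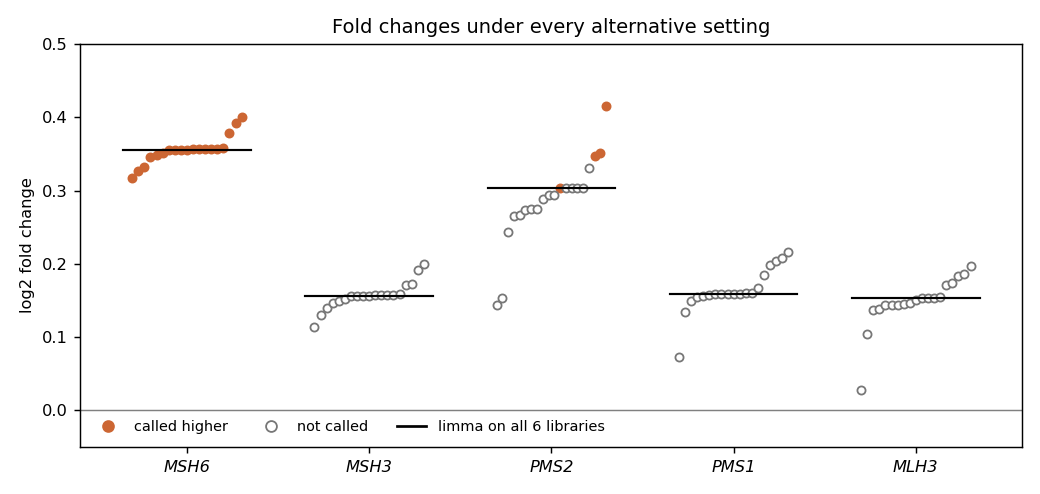
Log2 fold change (p21 ON minus p21 OFF) of the 5 genes under every alternative setting, sorted within each gene, with filled points where the gene was called higher and a line at the limma value of all 6 libraries. MSH6 is filled throughout, from 0.32 to 0.40, PMS2 is filled in 4 settings and ranges from 0.14 to 0.41, and every value lies above 0, the lowest being MLH3 at 0.03.

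The ratios among the MutL subunits did not separate the groups. The log2 ratio of PMS2 to PMS1 was -1.0, -0.19 and -0.57 in p21 OFF and -0.44, -0.50 and -0.39 in p21 ON libraries, so that the p21 ON values fall inside the p21 OFF range. The difference of the means was 0.14 (exact permutation p = 0.7, adjusted p = 0.7), and without p21 OFF replicate 1 it was -0.06. The log2 ratio of PMS2 to MLH3 was -0.60, -0.19 and -0.34 in p21 OFF and -0.20, -0.31 and -0.16 in p21 ON libraries, which overlap, with a difference of 0.15 (exact permutation p = 0.3, adjusted p = 0.36). Without p21 OFF replicate 1 this difference was 0.04.

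The 5 genes differed widely in level. Per kilobase of canonical transcript, MSH6 had 1025 ± 47.9 normalized counts in p21 OFF and 1311 ± 42.2 in p21 ON cells (SD, n = 3). PMS1 followed with 139 ± 14.1 and 155 ± 5.37, then MSH3 with 58.2 ± 1.30 and 64.9 ± 2.82, PMS2 with 57.7 ± 10.8 and 70.4 ± 2.72, and MLH3 with 48.2 ± 2.85 and 53.6 ± 2.04. In p21 OFF cells MSH6 was 7.37 times as high as PMS1, and PMS1 was 2.39 times as high as MSH3, with no overlap of libraries. MSH3, PMS2 and MLH3 were neighbours in level, where the libraries of PMS2 overlapped those of both others. In p21 ON cells PMS2 was 1.08 times as high as MSH3 and MSH3 1.21 times as high as MLH3, each without overlap. These ratios rest on the length used. Over all annotated exons of each gene, MSH6 was 3.06 times as high as PMS1 and PMS1 1.66 times as high as MSH3 in p21 OFF cells, and PMS2 came last.

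**Figure D3:**
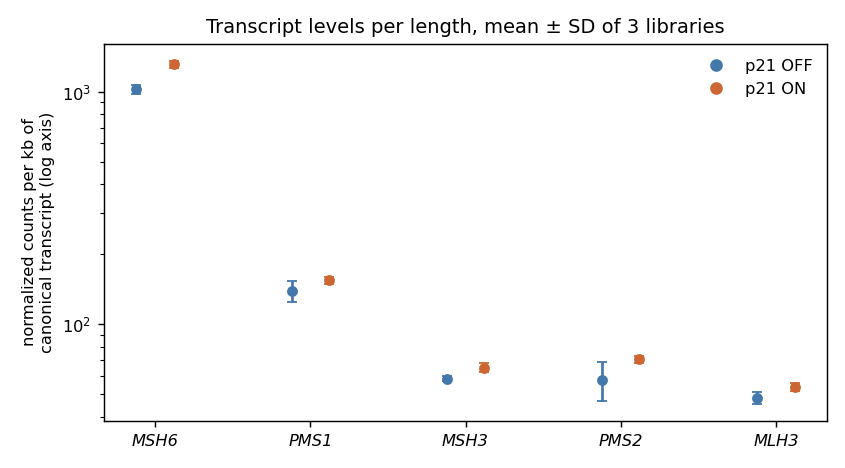
Normalized counts per kilobase of canonical transcript (log axis) of the 5 genes in p21 OFF (blue) and p21 ON (orange), as mean ± SD of 3 libraries. MSH6 stands alone near 1025 and 1311, PMS1 is at 139 and 155, and the other 3 lie between 48.2 and 70.4.

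PMS2 and PMS1 start within 1000 bases of a gene read in the opposite direction, and neither neighbour was called higher. The ratios to these neighbours, and that of MSH6 to EXO1, were chosen after the values were seen. AIMP2, a scaffold of the tRNA synthetase complex, starts 223 bases from PMS2 and was lower in p21 ON cells. It had 826, 780 and 714 normalized counts in p21 OFF and 617, 598 and 676 in p21 ON libraries, which do not overlap. Its log2 fold change was -0.29 (SE 0.08, limma adjusted p = 0.0108), and without p21 ON replicate 1 it missed the threshold (-0.28, adjusted p = 0.0573). The log2 ratio of PMS2 to AIMP2 was -1.83, -1.20 and -1.20 in p21 OFF and -0.73, -0.79 and -0.91 in p21 ON libraries, a difference of 0.60 without overlap (exact permutation p = 0.1, adjusted p = 0.2), and it was 0.39 without p21 OFF replicate 1. ORMDL1, a regulator of sphingolipid synthesis, starts 111 bases from PMS1 and shares 96 annotated exonic bases with it. It had 1141 ± 130 and 1110 ± 51.6 normalized counts (log2 fold change -0.03, limma adjusted p = 0.784), and the log2 ratio of PMS1 to ORMDL1 was 0.19 higher in p21 ON libraries (exact permutation p = 0.1, adjusted p = 0.2).

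**Figure D4:**
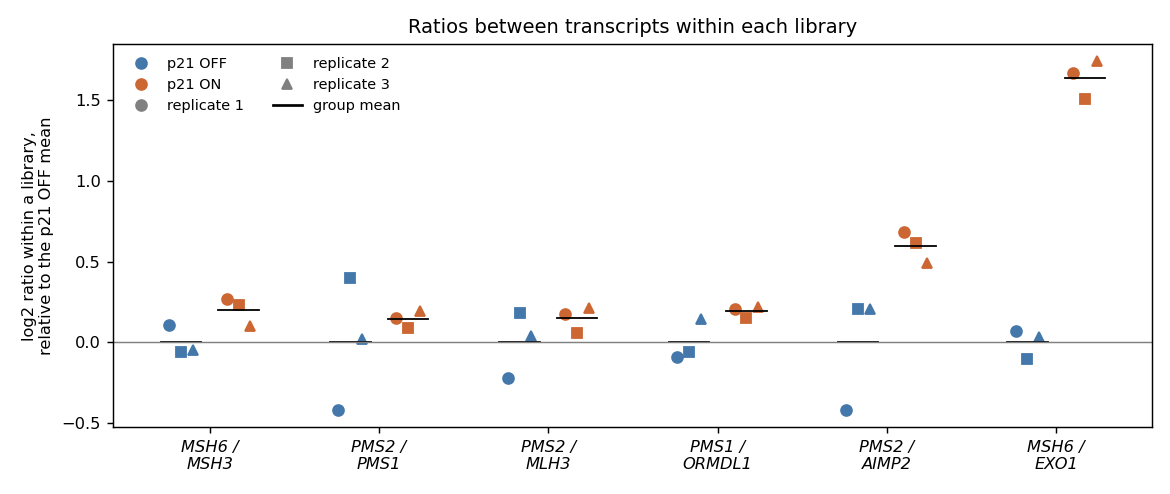
Log2 ratio of 2 transcripts within each library, set to 0 at the p21 OFF mean of each pair, for p21 OFF (blue) and p21 ON (orange), with symbols for replicates and lines at group means. The ratios of MSH6 to MSH3, PMS2 to PMS1 and PMS2 to MLH3 overlap between groups, and PMS2 to AIMP2 (0.60 apart), PMS1 to ORMDL1 (0.19 apart) and MSH6 to EXO1 (1.64 apart) do not.

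Of 15 excision and resynthesis genes tested, which act after mismatch recognition, 5 were lower (33.3%, against 12.7% of all genes tested), and the median of their log2 fold changes was -0.10. By limma 0 were higher (10.5% of all genes tested were), 2 were above p21 OFF at an unadjusted p under 0.05, and edgeR and DESeq2 also called 0 higher. EXO1, the exonuclease that digests the nicked strand, had 271, 279 and 262 normalized counts in p21 OFF and 108, 125.5 and 99.8 in p21 ON libraries. The p21 ON libraries had less than the lowest p21 OFF library by a wide margin, and EXO1 fell to 0.411 of its p21 OFF level (log2 fold change -1.28, SE 0.11, limma adjusted p = 8.01e-08). The log2 ratio of MSH6 to EXO1 went from 4.01 ± 0.09 to 5.65 ± 0.12 (SD, n = 3), a difference of 1.64 without overlap (exact permutation p = 0.1, the smallest possible, adjusted p = 0.2). MSH6 thus went from 16.1 to 50.1 times the EXO1 count.

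Within the clamp loader, which places the PCNA clamp on DNA, RFC3 and RFC5 were the subunits called. RFC3 fell from 1088 ± 65.8 to 504 ± 54.5 normalized counts (log2 fold change -1.11, limma adjusted p = 1.11e-08) and RFC5 from 752 ± 24.4 to 599 ± 16.0 (-0.33, adjusted p = 0.00262). RFC1 (0.14), RFC2 (0.17) and RFC4 (-0.10) were not called, though RFC1 (0.19) and RFC2 (0.21) were called higher under scaling by library size. RFC2 was also called higher with the length trend taken out (0.24, limma adjusted p = 0.0058), and RFC1 with the GC trend taken out (0.16, adjusted p = 0.0327). POLD1, the catalytic subunit of DNA polymerase delta, fell from 1781 ± 1.00 to 1336 ± 90.4 (-0.42, limma adjusted p = 0.000163), and the accessory subunits POLD2 (-0.08), POLD3 (0.04) and POLD4 (0.05) were not called. RPA3, the smallest subunit of the single-strand binding protein, fell from 176 ± 40.9 to 120 ± 6.39 (-0.53, limma adjusted p = 0.0104), a call that was lost without p21 ON replicate 1 (adjusted p = 0.0517) or replicate 3 (adjusted p = 0.0514). RPA3 was highest in p21 OFF replicate 1, and without that library it was still called, at -0.35. The log2 fold change was -0.11 for RPA1 and -0.03 for RPA2, neither called, but RPA1 was called lower with the length trend taken out (-0.16, limma adjusted p = 0.0238). PCNA was 0.15 higher on the log2 scale (adjusted p = 0.145 by limma) and was not called, but without p21 OFF replicate 1 it was called higher (0.22, adjusted p = 0.0061), as it was with the length trend taken out (0.25, adjusted p = 0.00287). LIG1, the nick-sealing ligase, was not called at -0.13 (limma adjusted p = 0.169), and was called lower without p21 OFF replicate 1 (-0.18, adjusted p = 0.0391) and with the GC trend taken out (-0.19, adjusted p = 0.0454).

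**Figure D5:**
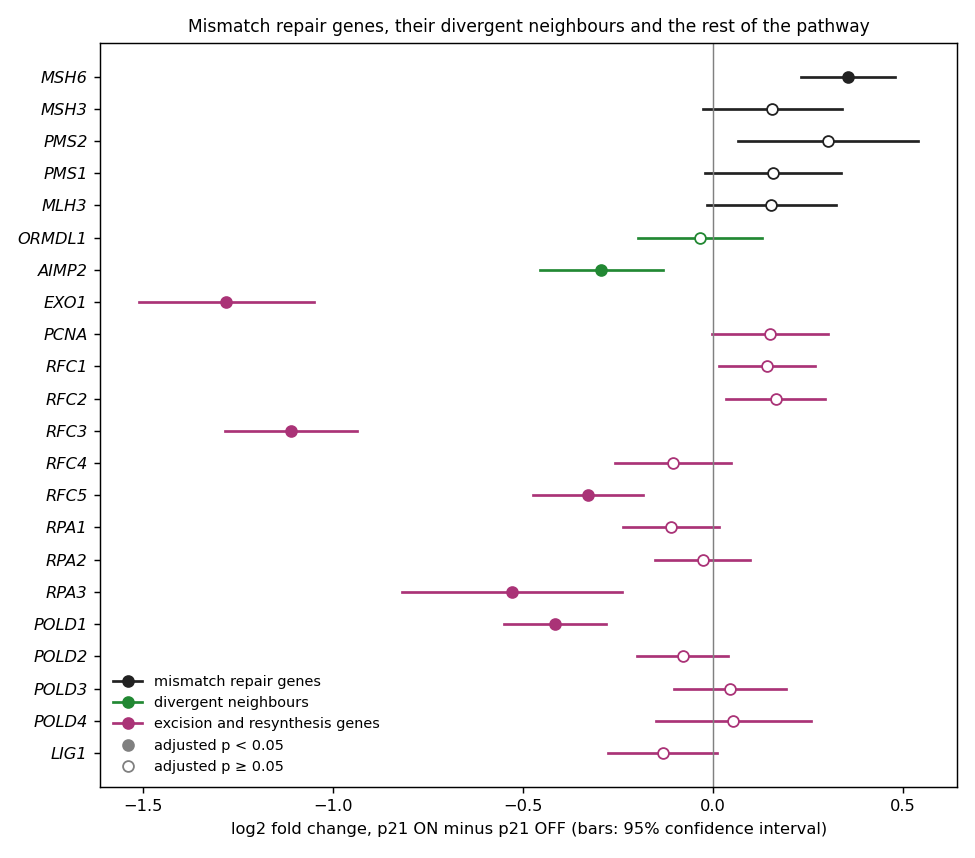
Log2 fold change (p21 ON minus p21 OFF) with its 95% confidence interval for the 5 mismatch repair genes (black), their divergent neighbours (green) and the 15 excision and resynthesis genes (purple), filled where the adjusted p was under 0.05. MSH6 (0.36) is the only filled point right of 0, and EXO1 (-1.28) and RFC3 (-1.11) lie farthest to the left.

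Genes near mismatch repair in function were also looked up. SETD2 writes the histone H3 lysine 36 trimethyl mark that the MSH6 protein binds. It had 2008 ± 222 and 2176 ± 75.0 normalized counts (log2 fold change 0.12, limma adjusted p = 0.247), and without p21 OFF replicate 1 the log2 fold change was 0.03. The rows of the meiotic MutS homologs were near the limit of detection, with MSH4 at 8.07 ± 0.70 and 5.78 ± 0.89 and MSH5 at 1.42 ± 0.73 and 2.94 ± 0.67 normalized counts, and neither passed the filter. The row that joins MSH5 to its neighbour, MSH5-C6orf26, was higher, at 15.9 ± 2.57 and 19.2 ± 2.45. It was not called (0.26 on the log2 scale, adjusted p = 0.511 by limma). How reads of MSH5 were shared between these rows is not known.

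Few genes of the other excision repair systems were called, too few to compare their shares with those of the whole table. Of 19 base excision repair genes tested 1 was higher (5.26%, against 10.5% of all genes tested) and 3 were lower (15.8%, against 12.7%), with a median log2 fold change of 0.0022. UNG, the uracil glycosylase, rose from 958 ± 16.0 to 1206 ± 80.5 normalized counts (0.33, limma adjusted p = 0.00207), while NEIL3 (-1.39, adjusted p = 4.73e-08) and PARP2 (-0.53, adjusted p = 1.66e-05) had the largest falls. Of 19 nucleotide excision repair genes tested 1 was higher (5.26%) and 3 were lower (15.8%), with a median of -0.09. XPC, the damage sensor, rose (0.28, limma adjusted p = 0.00955), and ERCC1 (-0.30, adjusted p = 0.0051) and CETN2 (-0.29, adjusted p = 0.0127) had the largest falls. The call of CETN2 was lost without p21 ON replicate 1 (adjusted p = 0.0622) or replicate 3 (adjusted p = 0.0688). A difference between these lists and the 5 mismatch repair genes was not tested.

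MSH6 belongs to the stricter list of S phase entry genes used by the study and MSH3 only to the wider one, and MLH3, PMS1 and PMS2 are in neither. Of the excision and resynthesis genes, EXO1, PCNA, RFC4 and POLD3 are also in the stricter list. RFC1, RFC2, RFC3, RFC5, RPA2, POLD1 and POLD2 are only in the wider one. Among the 54 genes of the stricter list tested under their listed symbols, 19 were higher (35.2%, against 10.5% of all genes tested) and 10 lower (18.5%, against 12.7%), and MSH6 had the 11th largest log2 fold change. Of 11397 genes with a mean of at least 50, the 3 whose log2 values followed those of MSH6 most closely over the 6 libraries were CCNE2, LOXL4 and TRIM65 (Pearson r of 0.999, 0.997 and 0.996), a description over libraries that fall into 2 groups. CCNE2, which encodes cyclin E2, rose from 832 to 1455 normalized counts (log2 fold change 0.81), LOXL4, a lysyl oxidase of the matrix, from 232 to 297 (0.35), and TRIM65, a ubiquitin ligase, from 440.0 to 565 (0.36).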

How the data were processed

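The authors made stranded mRNA libraries from SaOS-2 cells, sequenced them single-end in one lane, mapped reads to hg19 with STAR, counted them per gene with HTSeq and divided the counts by DESeq2 size factors. Their versions, and whether counting used strand, are not given in the sources used here. The deposited values are these normalized counts, a signal that is never negative. In each of the 6 libraries 100% of the values were whole multiples of 1 read (tolerance 0.01), so reads were recovered for counting error and for count tests.

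Groups followed the sample labels. limma 3.58.1 (lmFit, eBayes with trend, R 4.3.3) was fitted without covariates to log2(normalized count + 1), using the 13255 genes whose mean reached 10. P-values were adjusted over all of them by Benjamini-Hochberg, and the threshold was 0.05. Because of the pseudocount of 1, changes of low genes are understated. Ratios within libraries were compared by exact permutation tests (scipy 1.17.1). The study calls the replicates biological without saying what separated them, so the spread that the p-values rest on is that between these libraries. In the limma fit the variance of each gene was drawn toward a trend over all genes tested. Its SEs, confidence intervals and p-values therefore rest partly on the spread of other genes, and not on that of the gene alone. Counting errors were taken from reads and leave the spread between libraries out.

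The recovered reads were also tested by DESeq2 1.42.0, by limma-voom and by edgeR 4.0.16 (TMM or DESeq2 scaling). Further alternatives were library size and TMM scaling, pseudocounts of 0.1 and 10, other filters, a threshold of 0.01, a replicate block and each library left out. Taking out trends on transcript length or GC content (12561 genes had both, 94.8%) and summing PMS2 with its copies were added after seeing the data. Positions came from GENCODE release 44 on GRCh37, matched by symbol or RefSeq synonym. The genes named were the 5 members, the 15 pathway genes, MSH4, MSH5, SETD2, the PMS2 copies, neighbours starting within 1000 bases, overlapping genes, the 3 genes most like each called member, and the 2 largest calls per direction of each other repair list. Some items that this rule names are not reported here. The members and lists were chosen with earlier results of these data known. The fitting script was tested on simulated data.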

Additional observations from a re-analysis of the deposited data

How the results depend on the processing

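MSH6 was called higher in each of the 19 alternatives, and no mismatch repair gene was called lower in any. The count of the 5 called higher was 2, PMS2 joining MSH6, under scaling by library size (PMS2 log2 fold change 0.35, adjusted p = 0.03) and with the replicate number as a block (0.30, adjusted p = 0.0323), and ran from 1 to 2 with single libraries left out. Leaving out libraries gave log2 fold changes of 0.33 to 0.39 for MSH6, 0.13 to 0.19 for MSH3, 0.10 to 0.19 for MLH3, 0.07 to 0.21 for PMS1 and 0.14 to 0.41 for PMS2. The libraries share only a replicate number: deviations of same-numbered libraries from their group means correlated at -0.06, -0.02 and -0.05, and no library correlated best with its own number. Scaling by library size moved the median of all genes from 0.01 to 0.05, and the other alternatives named in the text are given beside their results.

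Over all genes, an adjusted p under 0.01 called 616 higher and 882 lower, and leaving out libraries called 695 to 1486 higher and 887 to 1660 lower, fewest without p21 ON replicate 1 both ways. The excision and resynthesis list had 2 genes called higher under library size scaling, 2 with the length trend taken out and 1 with the GC trend taken out (0 to 1 with libraries left out). Base excision repair had 2 called higher under library size scaling and with the length trend taken out (1 to 2 with libraries left out). Nucleotide excision repair had 6 called lower with the length trend taken out (1 to 4 with libraries left out). The cause was not tested. The log2 ratio of PMS2 to PMS1 ran from -0.06, without p21 OFF replicate 1, to 0.34.

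The 36 other named results gave 681 comparisons, of which 646 were unchanged, 8 lost and 9 gained a call, and 18 changed sign, all in genes without a call. For a gene, unchanged means that direction and side of the threshold were kept. For a ratio, it means the same sign and a move smaller than the SD within groups. Under library size scaling ORMDL1 was at 0.01, FBXO11 at 0.02 and RPA2 at 0.02. With the length trend taken out ORMDL1 was at 0.01, SETD2 at -0.02 and RPA2 at 0.05, and with the GC trend taken out ORMDL1 was at 0.02. With single libraries left out ORMDL1 ran from -0.09 to 0.06, FBXO11 from -0.03 to 0.0039, RPA2 from -0.06 to 0.0024, POLD4 from -0.0046 to 0.11, PMS2CL from -0.08 to 0.21, PMS2P3 from -0.07 to 0.32 and PMS2P4 from -0.20 to 0.32. PMS2P4 was at -0.04 under edgeR with either scaling. MSH3, MLH3, PMS1 and PMS2 had 185 to 624 reads per library, and the part of depth in their missed calls was not tested.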
